A study of Mus musculus with 11 samples.

Results

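The 7 tissue macrophage markers described here are Csf1r, Adgre1, Cd68, Lyz2, Mrc1, Cd163 and Folr2, chosen by name from the 19965 endogenous probes of a spatial transcript panel. Each is read by a single probe, and all 7 were present and passed the filter on low counts. The panel was hybridised to frozen mammary gland, fixed in paraformaldehyde, of naive periostin lineage tracing mice, in which the fluorescent reporter ZsGreen marks cells that express, or once expressed, the stromal matrix gene Postn. Regions were picked by their stain for podoplanin (Pdpn), a marker of lymphatic vessels, or for smooth muscle actin (SMA), which marks ducts and blood vessels, and only the ZsGreen-positive area inside each region was collected. The 6 Pdpn-adjacent regions (2, 3, 4, 7, 8 and 11) and the 5 SMA-adjacent regions (1, 5, 6, 9 and 10) analysed here are from 3 mice of the same naive reporter background, with no treatment named. The mice's age, sex and strain are not given in the sources used here. No label ties a region to a mouse. With more regions in either group than mice in the study, some regions come from the same mouse, so a p-value taken over regions may be too small.

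Macrophages are tissue phagocytes that engulf dying cells, debris and iron-bearing proteins, and that remodel matrix. In the mammary gland they lie along ducts, around vessels and within the fat pad, and most depend on signals through the receptor encoded by Csf1r. They are not the cells that the reporter was built to select, so transcript of these genes in the collected area can come from macrophages lying among or against ZsGreen-positive cells, or from reporter-positive cells themselves. In such bulk areas, fewer cells of a type and less RNA per cell cannot be told apart.

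The probes lie on GRCm38.p6, each at a single listed site inside the RefSeq extent of its gene. These are chromosome 17, 57406842 to 57406879 (Adgre1), chromosome 11, 69665044 to 69665079 (Cd68), chromosome 10, 117282113 to 117282147 (Lyz2), chromosome 2, 14238284 to 14238319 (Mrc1), chromosome 6, 124311607 to 124311642 (Cd163), and chromosome 7, 101840892 to 101840927 (Folr2). The position of the Csf1r probe is not given here, nor whether a site is exonic or in a UTR, which was not analysed here. A level is the count of a probe divided by the geometric mean count of the 210 negative-control probes of the same region, which have no target in the mouse, so a level of 1 is background. Because probes differ in how well they bind and release, levels were compared between regions for 1 gene and not between genes as amounts of transcript.

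RefSeq promoter windows (GRCm38.p6, 300 bases around the gene's start) were matched for Cd68, Lyz2, Mrc1, Cd163 and Folr2. They were searched for GAGGAA and its reverse complement TTCCTC, the purine-rich core known to bind PU.1, the Spi1-encoded factor on which the macrophage lineage depends. Of the 6 windows of these 5 genes (Folr2 had 2), 2 held a match, against 28.3% of 32851 windows of the same length. These 2 windows are shown because they hold the matches, which are in capitals.
Mrc1, chr2:14229164-14229463, plus strand: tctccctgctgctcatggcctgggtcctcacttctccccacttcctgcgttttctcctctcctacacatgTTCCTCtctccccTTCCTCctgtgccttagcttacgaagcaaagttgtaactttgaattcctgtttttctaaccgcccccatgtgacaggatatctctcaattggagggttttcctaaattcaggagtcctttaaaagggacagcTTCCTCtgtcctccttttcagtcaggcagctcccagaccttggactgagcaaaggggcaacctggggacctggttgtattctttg
Cd68, chr11:69666121-69666420, minus strand: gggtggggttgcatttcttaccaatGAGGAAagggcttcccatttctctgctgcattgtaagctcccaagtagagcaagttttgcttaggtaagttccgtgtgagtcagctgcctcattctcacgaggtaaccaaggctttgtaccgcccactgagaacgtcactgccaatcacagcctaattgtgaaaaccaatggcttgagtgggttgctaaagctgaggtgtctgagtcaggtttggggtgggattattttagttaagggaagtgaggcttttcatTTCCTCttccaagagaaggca
In the Mrc1 window the motif stood 3 times, each in its reverse form, and in the Cd68 window 2 times, 1 in each form. A match describes the letters and not a bound site. The Spi1 probe itself, named here outside the rule for genes, had a median level of 1.55 over the 8 regions with a total above 100000 counts, and stood above the detection floor in 0 of 11 regions.

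Depth differed widely between the regions. Total counts were 760761 to 3086323 in the SMA-adjacent regions and 22757 to 2271664 in the Pdpn-adjacent regions, and regions 2, 3 and 11 held 22757, 81760 and 30316. In region 2 all 7 markers stood at a count of 1, the lowest value of the table, as did 90.0% of all probes, and in region 11 4 markers and 77.6% of probes did. The 8 other regions (1, 4, 5, 6, 7, 8, 9 and 10) held over 100000 counts each and are called the deeper regions, 3 of them Pdpn-adjacent. Of these 3, only region 4 (2271664) lay in the SMA-adjacent range of totals. Regions 7 and 8 held 225875 and 301401, less than any SMA-adjacent region, so the deeper regions were not matched for depth. As a check of the labels, Acta2, which encodes SMA, had levels of 0.952 to 10.0 in Pdpn-adjacent and 12.9 to 87.5 in SMA-adjacent regions. Pdpn transcript had 0.375 (a count of 1 in region 3) to 1.79 and 1.56 to 1.95. The Pdpn probe passed the detection floor in 0 regions, so it cannot show whether its label was followed. Postn had 0.889 to 4.09 and 1.84 to 5.13. These 3 genes bear on how areas were picked (stains for SMA and Pdpn, reporter for Postn) and are no findings.

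The markers were low but not all at background. The detection floor was set in each region at 2 SD above the mean log2 count of the negative probes. Of 77 pairs of a marker and a region, 22 passed this floor, against 12.0% of all endogenous probes and regions. Csf1r passed in 8 regions and Adgre1 in 7, while Folr2 and Cd163 passed in 2 each and Cd68, Mrc1 and Lyz2 in 1 each. In region 11 the floor lay at 1.98 counts, so its 3 passes (Csf1r, Lyz2 and Cd163) each rest on a count of 2. The number of markers above the floor was 5 in region 10, 3 in regions 1 and 9, 2 in regions 4, 5, 6 and 8, and 0 in regions 2, 3 and 7. A median level of at least 2 over the deeper regions was reached by Csf1r and Adgre1, 2 of the 7 markers, and by 17.5% of all probes.

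**Figure D1:**
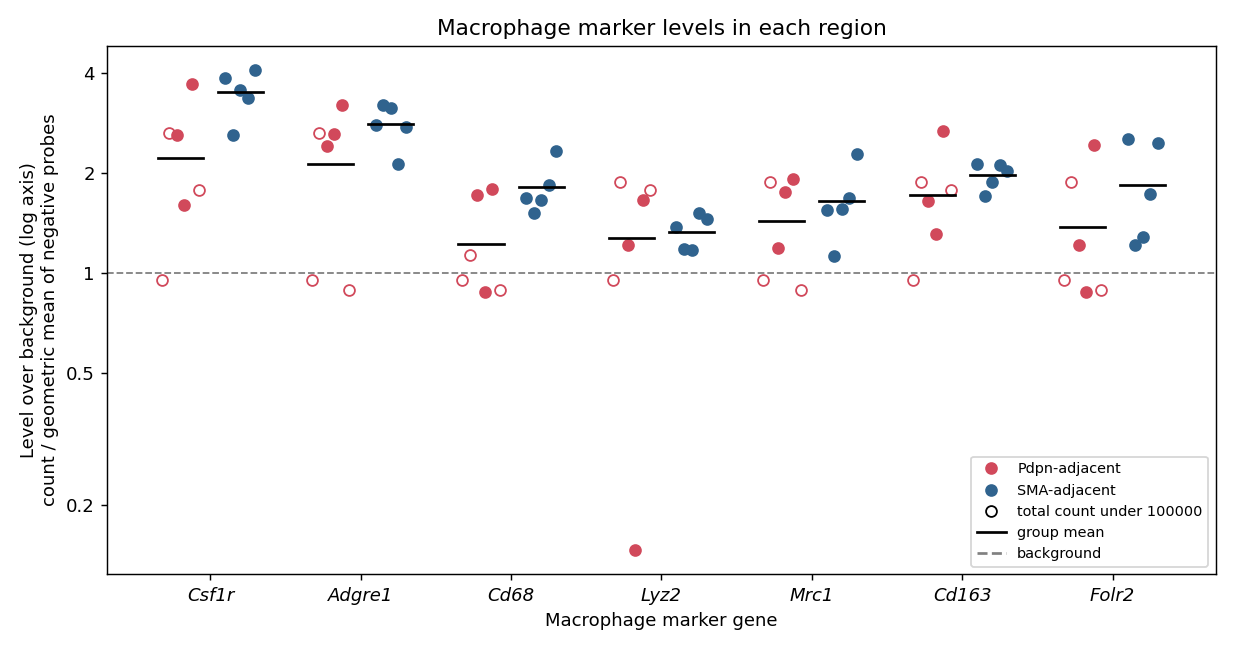
Level over background (log axis) of each marker in each region, with Pdpn-adjacent regions in red, SMA-adjacent regions in blue, open circles for regions under 100000 counts and black bars for group means. Csf1r and Adgre1 lie at 2 or more in most deeper regions, and the other 5 markers lie closer to the background line at 1, with Lyz2 at 0.146 in region 7.

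Csf1r encodes the receptor tyrosine kinase for the growth factors Csf1 and Il34, which keeps most tissue macrophages alive. Its counts in SMA-adjacent regions 1, 5, 6, 9 and 10 were 87, 288, 229, 291 and 161, which gave levels of 3.85, 2.59, 3.56, 3.37 and 4.08. The Pdpn-adjacent regions 4, 7 and 8 had counts of 199, 11 and 29 and levels of 2.59, 1.60 and 3.71. The shallow regions 2, 3 and 11 had counts of 1, 7 and 2 and levels of 0.952, 2.63 and 1.78. Csf1r was thus highest in SMA-adjacent regions 10 and 1 and Pdpn-adjacent region 8, and among the deeper regions lowest in region 7. In region 8 the exact 95% Poisson interval of the level was 2.48 to 5.32, which overlaps that of every SMA-adjacent region, and in region 7 it was 0.799 to 2.86, which lies below those of regions 1, 6, 9 and 10. These intervals cover counting error only, take the background as fixed and take the deposited counts at face value. In the 5 SMA-adjacent regions the count of Csf1r exceeded that of 94.5% to 96.8% of endogenous probes.

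The mean Csf1r level was 2.21 ± 0.969 (SD, n = 6) next to Pdpn and 3.49 ± 0.572 (SD, n = 5) next to SMA. The groups overlapped, and regions 2, 7 and 11 lay under the whole SMA-adjacent range. In the edgeR fit the log2 fold change, Pdpn-adjacent minus SMA-adjacent, was -0.43 ± 0.21 (SE; 95% interval -0.86 to -0.00046). That gave an unadjusted edgeR p of 0.0498 and an adjusted p of 0.826 over all probes, so the difference did not pass. The mean log2 level differed by -0.77 (exact permutation p = 0.0476, two-sided; 0.782 adjusted over all endogenous probes). Without regions 2, 3 and 11 the difference in log2 level was -0.47 (exact permutation p = 0.196). Leaving out any 1 of regions 1, 2, 3, 4, 6, 7, 9, 10 and 11 gave an exact permutation p of 0.0556 to 0.0952. Regions from the same mouse can make these p-values too small.

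Adgre1 encodes F4/80, an adhesion G protein-coupled receptor long used as the surface label of mouse macrophages. Its levels were 2.79, 3.20, 3.14, 2.13 and 2.74 in SMA-adjacent regions 1, 5, 6, 9 and 10 (counts of 63, 356, 202, 184 and 108). In Pdpn-adjacent regions 4, 7 and 8 they were 2.41, 2.62 and 3.19 (counts of 185, 18 and 25), and in regions 2, 3 and 11 they were 0.952, 2.63 and 0.889 (counts of 1, 7 and 1). The 3 deeper Pdpn-adjacent regions therefore lay inside the SMA-adjacent range, and region 7, the lowest deeper region for Csf1r, was not low for Adgre1. Group means were 2.12 ± 0.962 (SD, n = 6) and 2.80 ± 0.427 (SD, n = 5), or 2.74 ± 0.405 (SD, n = 3) in the deeper Pdpn-adjacent regions alone. The edgeR log2 fold change was -0.15 ± 0.20 (SE; 95% interval -0.57 to 0.26; adjusted p = 1.00), and the exact permutation p of the level was 0.249. Regions that share a mouse can make the exact p too small.

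Cd68 and Lyz2 encode proteins of the phagocyte's digestive pathway, a heavily glycosylated lysosomal membrane protein and a secreted and lysosomal enzyme that cuts bacterial cell walls. For Cd68 the SMA-adjacent regions 1, 5, 6, 9 and 10 had levels of 1.68, 1.51, 1.66, 1.84 and 2.33. The Pdpn-adjacent regions 2, 3, 4, 7, 8 and 11 had 0.952, 1.13, 1.71, 0.873, 1.79 and 0.889. Regions 4 and 8 were thus within the SMA-adjacent range and the other 4 below it. Means were 1.22 ± 0.418 (SD, n = 6) and 1.81 ± 0.317 (SD, n = 5), and the mean log2 level differed by -0.61 (exact permutation p = 0.0368; 0.782 adjusted over all endogenous probes). Without regions 2, 3 and 11 that difference was -0.36 (exact permutation p = 0.321), and leaving out any 1 of regions 1, 2, 3, 6, 7, 9, 10 and 11 gave an exact p of 0.0524 to 0.0905. The edgeR log2 fold change over all regions was -0.18 ± 0.34 (SE; 95% interval -0.89 to 0.53; adjusted p = 1.00). It was -0.54 without region 4, -0.09 without region 7 and -0.11 without region 10. Regions from the same mouse can make these p-values too small.

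Lyz2 ranked near the middle of all probes. Its levels were 1.37, 1.18, 1.17, 1.51 and 1.45 in SMA-adjacent regions 1, 5, 6, 9 and 10, where it exceeded 42.7% to 60.8% of endogenous probes. The Pdpn-adjacent regions 2, 3, 4, 7, 8 and 11 had 0.952, 1.88, 1.21, 0.146, 1.66 and 1.78. Region 7 had a count of 1 for Lyz2, where the geometric mean of the negative probes was 6.87 and 0 of the 210 were lower. Of the 19965 endogenous probes, 160 had that lowest value there. Group means were 1.27 ± 0.655 (SD, n = 6) and 1.33 ± 0.155 (SD, n = 5). The edgeR log2 fold change was -0.12 ± 0.19 (SE; 95% interval -0.51 to 0.28; adjusted p = 1.00) and turned to 0.04 without region 7. The neighbouring gene Lyz1, a close copy whose own probe had mean levels of 1.04 ± 0.249 (SD, n = 6) and 0.981 ± 0.254 (SD, n = 5), gave r = 0.27 with Lyz2 over the deeper regions, and cross-binding between the probes was not tested. The p-value can be too small where regions share a mouse.

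Mrc1, Cd163 and Folr2 mark resident macrophages that take up material from their surroundings. Mrc1 encodes the mannose receptor CD206, Cd163 the scavenger receptor for haemoglobin bound to haptoglobin, and Folr2 the folate receptor beta. For Mrc1 the SMA-adjacent regions 1, 5, 6, 9 and 10 had levels of 1.55, 1.12, 1.56, 1.68 and 2.28 and the Pdpn-adjacent regions 2, 3, 4, 7, 8 and 11 had 0.952, 1.88, 1.19, 1.75, 1.92 and 0.889. Region 10 was the highest, and the lowest deeper regions, 5 and 4, came from different groups. The means were 1.43 ± 0.472 (SD, n = 6) and 1.64 ± 0.417 (SD, n = 5), with an edgeR log2 fold change of -0.17 ± 0.18 (SE; 95% interval -0.55 to 0.21; adjusted p = 1.00). Without region 4 that fold change was 0.08.

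Cd163 lay close together in SMA-adjacent regions 1, 5, 6, 9 and 10, at levels of 2.12, 1.70, 1.87, 2.11 and 2.03. Pdpn-adjacent regions 2, 3, 4, 7, 8 and 11 spread more widely, at 0.952, 1.88, 1.64, 1.31, 2.68 and 1.78, with region 8 above every SMA-adjacent region and 3 regions below all of them. Region 8 rested on a count of 21, with a 95% Poisson interval of 1.66 to 4.10 that overlaps that of every SMA-adjacent region. The low regions 2, 4 and 7 had counts of 1, 126 and 9, so counting error may be part of the wider spread. Group means were 1.71 ± 0.586 (SD, n = 6) and 1.97 ± 0.180 (SD, n = 5), with an edgeR log2 fold change of -0.11 ± 0.16 (SE; 95% interval -0.44 to 0.21; adjusted p = 1.00) and an exact permutation p of the level of 0.294. Folr2 was lowest among the deeper regions in Pdpn-adjacent region 7 and highest in SMA-adjacent region 1. Of 6 Pdpn-adjacent regions, 4 lay under the whole SMA-adjacent range, region 4 only by a difference lost in rounding. Pdpn-adjacent region 4 and SMA-adjacent region 5 both had 1.21, with 95% Poisson intervals of 0.979 to 1.49 and 1.02 to 1.44. Its levels were 2.52, 2.46 and 2.43 in regions 1, 10 and 8, 1.73 in region 9, 1.28, 1.21 and 1.21 in regions 6, 5 and 4, and 0.873 in region 7. In the shallow regions 2, 3 and 11 it had 0.952, 1.88 and 0.889. Its means were 1.37 ± 0.641 (SD, n = 6) and 1.84 ± 0.627 (SD, n = 5), the edgeR log2 fold change was -0.30 ± 0.22 (SE; 95% interval -0.75 to 0.15; adjusted p = 0.952), and the exact permutation p of the level was 0.193. For Mrc1 that p was 0.405. Some regions share a mouse, so the p-values for these 3 genes can be too small.

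**Figure D2:**
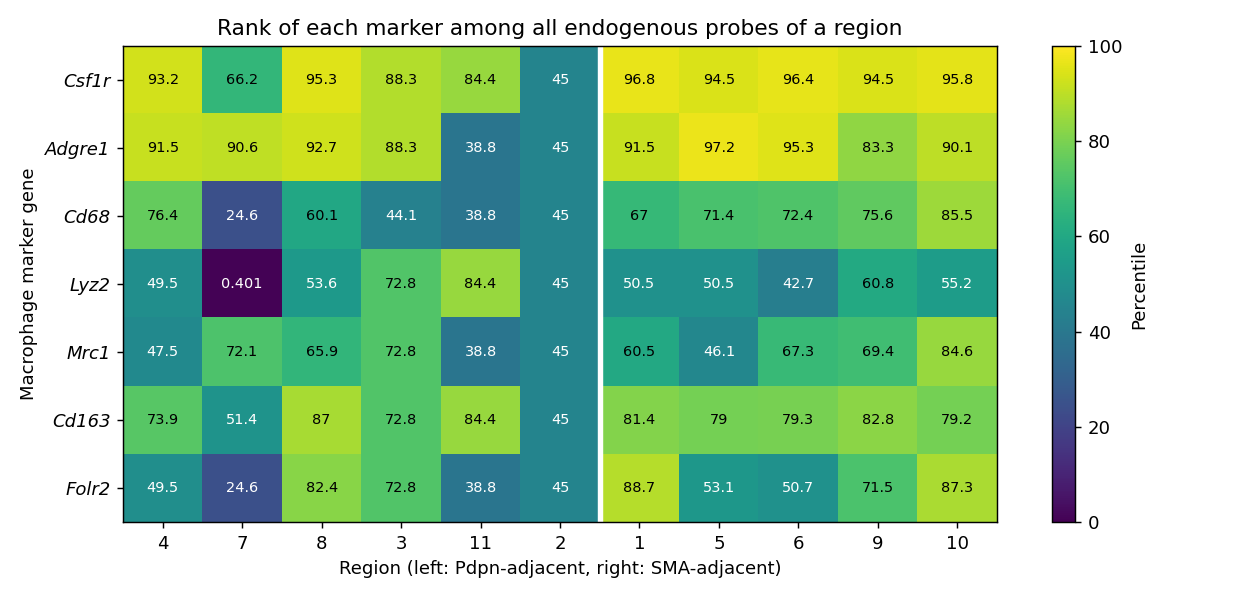
Percentile of each marker's count among all endogenous probes of the region (ties counted at their middle), with Pdpn-adjacent regions on the left of the white line and SMA-adjacent regions on the right. Csf1r lies at 94.5 to 96.8 in SMA-adjacent regions and at 66.2 in region 7, Lyz2 lies at 0.401 in region 7, and region 2 shows a single value because all 7 markers had a count of 1.

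Across the 7 markers, 0 passed the edgeR threshold of an adjusted p of 0.05, as did 2 of 19935 probes tested (0.0100%), both higher in Pdpn-adjacent regions. With library totals alone as scaling, 1 probe was called higher and 1 lower. At an unadjusted p under 0.05, edgeR gave 1 marker lower (Csf1r) and 0 higher, where 3.19% of all probes were lower and 6.03% differed in either direction. That count was 0 with no filter on low counts, with negative-probe scaling, with library totals, and after leaving out any 1 of regions 1, 2, 4, 6, 7, 9, 10 and 11, and it was 2 without regions 4 and 8. DESeq2 gave an adjusted p to Csf1r (0.815) and Adgre1 (0.994) alone and set none for the other 5 markers, and 0 of the 7 had an unadjusted p under 0.05. limma-voom gave 0 markers past the adjusted threshold and 1 at an unadjusted p under 0.05. All 7 log2 fold changes were below 0, with a median of -0.17, where 48.8% of all probes were below 0 and their median was 0.00562. On the level scale the 7 markers also had lower means in Pdpn-adjacent regions, as did 67.2% of all probes, and 2 markers (Csf1r and Cd68) had an exact permutation p under 0.05 with lower values, against 4.41% of probes (5.84% in either direction). No marker separated the groups completely, which 0.446% of probes did with lower and 0.120% with higher values in Pdpn-adjacent regions. These counts treat regions that share a mouse as independent, so their p-values can be too small.

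**Figure D3:**
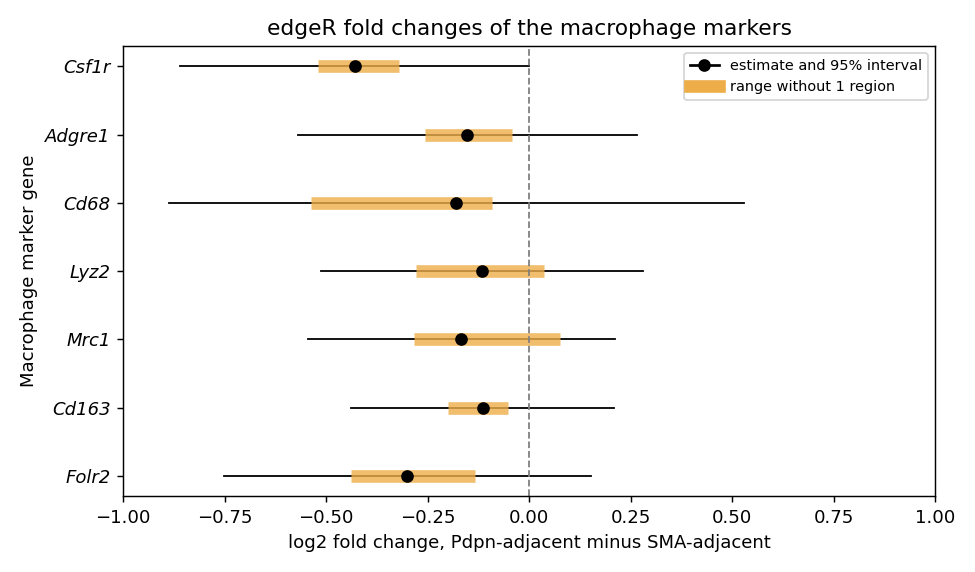
edgeR log2 fold change of each marker (Pdpn-adjacent minus SMA-adjacent), with the 95% interval as a thin line and the range over the 11 fits that each left out 1 region as a thick bar. All 7 estimates lie below 0, the Csf1r interval ends at -0.00046, and the bars of Lyz2 and Mrc1 cross 0.

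Marker lists of other cell types, of which edgeR called 0 genes, spread widely within both groups. Their median log2 fold changes were -0.60 (fibroblast), -0.62 (adipocyte), -0.47 (blood endothelial), -2.13 (smooth muscle), 0.76 (luminal epithelial) and 2.21 (skeletal muscle), against -0.17 for the macrophage markers. Fold changes were below 0 for 12 of 12 fibroblast genes and for 7 of 8 adipocyte, 7 of 8 blood endothelial and 7 of 8 smooth muscle genes. For luminal epithelial and skeletal muscle genes 0 of 8 were, and of all probes 48.8% were. The 12 fibroblast markers had summed levels of 11.4 to 94.5 in Pdpn-adjacent and 56.2 to 166 in SMA-adjacent regions, the 8 adipocyte markers 11.4 to 518 and 180 to 570, the 8 blood endothelial markers 7.61 to 27.6 and 15.3 to 35.5, and the 8 smooth muscle markers 9.52 to 35.5 and 36.5 to 198. The ranges of every list but smooth muscle overlapped, and for adipocyte markers deeper Pdpn-adjacent regions 4, 7 and 8 lay inside the SMA-adjacent range. The smooth muscle list includes Acta2, and areas were picked by a stain for SMA, so its separation bears on that choice and is no finding. The 8 skeletal muscle markers had 8.67 to 730 and 8.62 to 93.0, and their mean level was highest in Pdpn-adjacent regions 3 and 7. The mean level of the 8 luminal epithelial markers was 2.64 and 2.95 in Pdpn-adjacent regions 4 and 8, 0.889 to 1.51 in the other 4 Pdpn-adjacent regions and 1.31 to 1.76 in SMA-adjacent regions. Summed levels of the 7 macrophage markers were 6.66 to 17.4 and 12.5 to 17.4. The part of depth or of these cell types in the lower Csf1r and Cd68 levels was not tested. In each of these 6 lists, as in the macrophage list, 0 genes were at the lowest count in every region of a group.

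The ligands of Csf1r were near background in most regions. Csf1, made by stromal and endothelial cells, had levels of 0.900 to 1.33 in SMA-adjacent and 0.873 to 1.78 in Pdpn-adjacent regions (edgeR log2 fold change 0.0012 ± 0.17 SE, adjusted p = 1.00). Il34, the other ligand, had 0.796 to 1.27 and 0.795 to 2.04 (log2 fold change -0.06 ± 0.18 SE, edgeR adjusted p = 1.00). At this depth neither ligand could be told from background in most regions, Csf1 passing the floor in 1 and Il34 in 0. The Csf1 pass, in region 11, rested on a count of 2. The 95% Poisson interval lay above 1 for Csf1 in region 9 (1.10 to 1.60) and for Il34 in region 8 (1.17 to 3.32). Of 17 genes of the receptor's axis, 0 were called in either direction by edgeR, with a median log2 fold change of 0.0012. Among its members, the phosphoinositide kinase subunit gene Pik3r1 and the phospholipase gene Plcg2 had median levels of 2.47 and 2.04 over the deeper regions. The p-values can be too small where regions share a mouse.

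Other macrophage genes had fold changes in both directions, more of them below 0, without passing the threshold. Of 22 further pan-macrophage genes, 0 were higher and 0 lower past the edgeR threshold, where 0.0100% of all probes were called. Of the 22, 17 had a log2 fold change below 0, as did 48.8% of all probes, and the median was -0.19. At an unadjusted edgeR p under 0.05, 4 were lower, where 3.19% of all probes were, and 1 was higher, where 566 of 19935 probes were. The 4 lower genes were C1qa, C1qc, Tyrobp and Mertk, which passed the floor in 7, 6, 4 and 2 regions. C1qa, Tyrobp and Mertk are named here after their values were seen, as is the higher gene. That gene was Cd14, a receptor for bacterial lipopolysaccharide. Its log2 fold change was 0.44 ± 0.15 SE (edgeR unadjusted p = 0.00581, adjusted p = 0.589). Its levels were 1.45 ± 0.617 (SD, n = 6) and 1.27 ± 0.13 (SD, n = 5). Cd14 passed the floor in 0 regions, so it could not be told from background. Ctsb, a lysosomal protease, and Lamp1, a lysosomal membrane protein, had median levels of 6.25 and 6.13 over the deeper regions, and many cell types make both. Levels of C1qc, a chain of the complement starter C1q that tissue macrophages make, were 2.07 ± 1.29 (SD, n = 6) against 3.57 ± 1.03 (SD, n = 5), with an edgeR log2 fold change of -0.57 ± 0.24 SE (unadjusted p = 0.0249, adjusted p = 0.761). Among 14 genes of resident perivascular macrophages, all 14 fold changes were below 0, against 48.8% of all probes, and 0 passed (median -0.21). Gas6, a ligand that bridges dying cells to phagocytes, had a median level of 7.82, the lectin gene Fcna of 3.07 and Igf1, a growth factor that stromal cells also make, of 2.91. Where a mouse gave several regions, these p-values may be too small.

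Of 9 genes of ductal and antigen-presenting macrophages, 0 passed and the median log2 fold change was -0.15. Cd74, the invariant chain of MHC class II, had 4.16 ± 3.33 (SD, n = 6) against 10.6 ± 4.11 (SD, n = 5), with an edgeR log2 fold change of -1.08 ± 0.40 SE (unadjusted p = 0.0110, adjusted p = 0.668), and the class II chains H2-Ab1 and H2-Aa had median levels of 3.81 and 2.38 over the deeper regions. These genes are also made by dendritic and B cells, whose marker lists lay at mean levels of 0.889 to 1.55 (8 dendritic genes) and 0.952 to 1.69 (10 T and B lymphocyte genes), and the part of those cells in these levels was not tested. Of 9 measured monocyte genes 0 passed (median -0.05), with Hp, haptoglobin, which fat cells also make, at 3.45, Treml4 at 2.07 and Nr4a1 at 1.90. Some regions share a mouse, and the p-values can be too small for it.

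For the remaining lists edgeR called 0 genes in either direction. The 12 chemoattractants had a median log2 fold change of -0.16 and included complement C3, at a median level of 17.3 over the deeper regions, and the monocyte chemokine genes Ccl8 and Ccl12 at 2.19 and 1.73. The 18 genes related to the markers by protein family or by a scavenger receptor role had a median of -0.05. Among them, the scavenger receptor and fatty acid transporter gene Cd36 had mean levels of 11.0 ± 7.31 (SD, n = 6) and 18.7 ± 5.37 (SD, n = 5). Lamp2 had a median level of 3.88 and the lipoprotein receptor gene Scarb1 of 3.08. All 3 are made by cells other than macrophages as well. The 15 genes of iron, haem and lysosome handling had a median of -0.15 and included the ferritin heavy chain gene Fth1 at 25.0, the lysosomal protease gene Ctsd at 13.0 and the ferritin light chain gene Ftl1 at 11.2. Neutrophil and mast cell lists (8 genes each) had medians of 0.08 and -0.23 and summed levels of 7.61 to 16.4 and 7.12 to 13.0 in Pdpn-adjacent against 11.6 to 12.4 and 9.20 to 19.4 in SMA-adjacent regions.

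**Figure D4:**
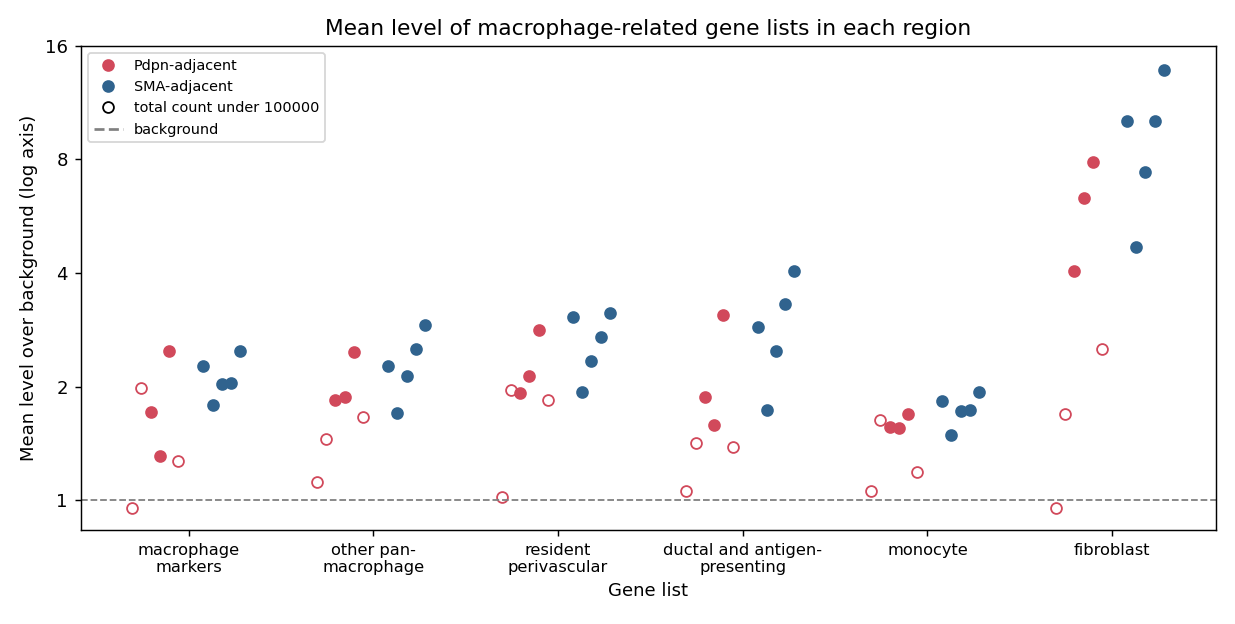
Mean level over background (log axis) of 5 macrophage and monocyte gene lists and of the fibroblast list, each point a region, with Pdpn-adjacent regions in red, SMA-adjacent regions in blue and open circles for regions under 100000 counts. The 7 markers average 0.952 to 2.48 in Pdpn-adjacent and 1.79 to 2.48 in SMA-adjacent regions, and the fibroblast list reaches 13.8 in region 10.

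The markers did not all vary together. Over the 8 deeper regions, Pearson's r of log2 levels had a median of 0.753 over the 15 pairs among Csf1r, Cd68, Lyz2, Mrc1, Cd163 and Folr2, and of 0.104 over the 6 pairs that included Adgre1. This split by Adgre1 was made after the values were seen and is a description. Within the 6 the pairs ran from -0.04 (Lyz2 and Mrc1) to 0.92 (Cd68 and Lyz2), and pairs with Adgre1 ran from -0.04 to 0.20. Region 7 was the lowest of the deeper regions for 5 of the 7 markers (Csf1r, Cd68, Lyz2, Cd163 and Folr2), and also for 22.3% of the 3499 probes with a median level of at least 2. Of the 7 markers only Csf1r and Adgre1 belong to these probes, so shares of them are no like reference for the other markers. Without region 7 the 15 pairs had a median r of 0.740 and ran from 0.32 to 0.91, and the 6 pairs with Adgre1 from -0.30 to 0.15. Single pairs moved both ways. Lyz2 and Mrc1 rose to 0.74, while Cd68 and Lyz2 fell to 0.53. Csf1r and Cd68 fell from 0.90 to 0.63, and Cd68 and Cd163 from 0.73 to 0.32. Region 10 was the highest for 3 markers (Csf1r, Cd68 and Mrc1), and for 23.4% of those probes.

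All points of these correlations share libraries, depth and the background that divides each count. Against the 3498 other probes with a median level of at least 2, Csf1r had a median r of 0.292 and Adgre1 of -0.130. For the other markers, against all 3499 such probes, it ran from 0.103 (Lyz2) to 0.470 (Mrc1). Without region 7 this median r was 0.519 for Csf1r, 0.480 for Cd68, 0.573 for Mrc1 and 0.491 for Lyz2. It was then 0.464 for Cd163, 0.480 for Folr2 and -0.160 for Adgre1. Positive r without region 7 was thus not particular to pairs of markers. Correlations with the median level of all probes, a measure of how far a whole region stood above background, were 0.774 for Mrc1, 0.709 for Folr2, 0.707 for Cd163, 0.440 for Csf1r, 0.240 for Cd68, 0.171 for Lyz2 and 0.0707 for Adgre1.

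**Figure D5:**
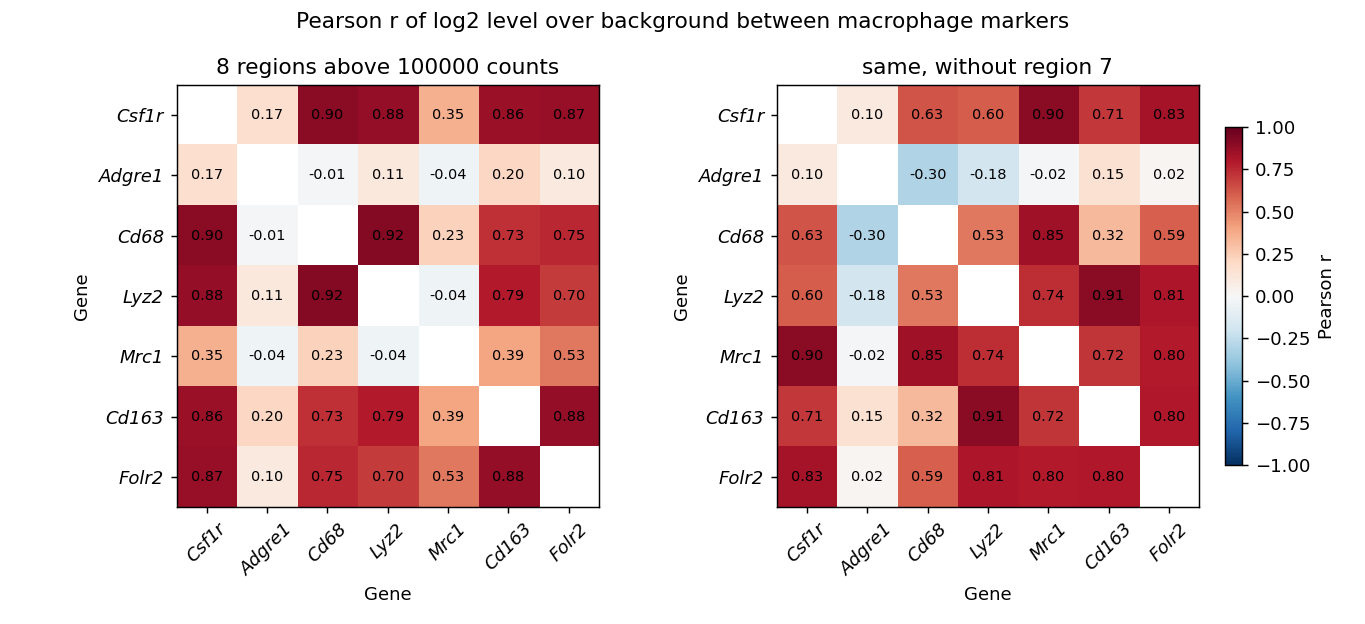
Pearson's r of log2 level over background for each pair of markers, over the 8 regions above 100000 counts (left) and the same without region 7 (right), in blue for negative and red for positive values. The row of Adgre1 stays between -0.30 and 0.20 in both panels. From left to right, r of Csf1r with Mrc1 rises from 0.35 to 0.90 and r of Cd68 with Lyz2 falls from 0.92 to 0.53.

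The probes most like Csf1r over the 8 deeper regions were those of Jup, a junction protein (r = 0.986), Fbxw2 (0.974), C1qa, a chain of complement C1q made by tissue macrophages (0.970), Apbb2 (0.970) and Spr (0.969). Of these, C1qa had levels of 0.728 to 4.90 over those regions, with r = 0.899 without region 7. The probes most like Adgre1 were Vmn1r172 (r = 0.859) and Vmn1r231 (0.807), receptors of the vomeronasal sensory organ, followed by Prss51 (0.797), Tmem191c (0.775) and Rufy4 (0.768), all 5 with median levels of 2.19 to 2.43. With 8 points and 3498 candidates, the highest r of such a search is large by its construction, and these names describe likeness of values only.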

How the data were processed

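Transcripts were measured in 11 areas with GeoMx digital spatial profiling, in which barcoded mouse Whole Transcriptome Atlas probes are released by ultraviolet light and sequenced; the labels count 12 collected areas. The authors deposited raw counts per probe, with no normalization, judged from the values (whole numbers, totals of 22757 to 3086323). Per the file headers probe positions are on GRCm38.p6. The sources used here name no aligner, counting step or duplicate removal. They do not say whether 1 was added to each count (lowest value 1).

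Levels divide counts by the geometric mean of the 210 negative probes, whose share was 0.610% to 0.979% of all counts and which stayed out of library sizes and tests. The quasi-likelihood test of edgeR 4.0.16 (R 4.3.3; filterByExpr, TMM, two-sided, Benjamini-Hochberg over 19935 probes, threshold 0.05) was run on all 11 regions. Tested on simulated data, it missed some of the smaller changes and its share of false calls exceeded the threshold. The SE is the one implied by its p. Levels were compared by exact two-sided permutation over all 462 ways to choose the groups (smallest possible p 0.00216). Alternatives used DESeq2 1.42.0, limma 3.58.1 (limma-voom), other scalings, filters, floors and fewer regions. Nothing in the labels says that regions are separate animals, so spread between regions may be partly technical.

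The 7 markers and the 18 other lists were chosen with earlier results of these data known. Genes named were the 7 markers, Csf1, Il34, Acta2, Pdpn, Postn, up to 3 genes of highest median level per other list, and the 5 probes of highest r with each marker of median level at least 2. The names of the 2 called probes are not reported here.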

Additional observations from a re-analysis of the deposited data

How the results depend on the processing

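Of the markers that had an adjusted p, 0 passed the threshold in each of the 24 alternative fits (edgeR, DESeq2, limma-voom); DESeq2 set no adjusted p for 5 of the 7, and the stricter filter tested only Csf1r and Adgre1. The marker fold changes kept their sign in 160 of 163 recomputed values, and under every scaling tried (DESeq2 size factors, upper quartile, negative probes, library totals) all 7 stayed below 0. The exceptions were Mrc1 without regions 4 and 8 (0.12) and over the fits that left out 1 region (-0.28 to 0.0757, the highest without Pdpn-adjacent region 4), and Lyz2 over those fits (-0.28 to 0.0374, the highest without region 7). For the other markers those fits gave -0.52 to -0.32 (Csf1r), -0.54 to -0.09 (Cd68), -0.26 to -0.04 (Adgre1), -0.20 to -0.05 (Cd163) and -0.44 to -0.13 (Folr2), and without regions 4 and 8 Csf1r was -0.81 and Cd68 -0.82. The level difference of Lyz2 ran from -0.61 to 0.13 when 1 region was left out, again highest without region 7 (exact permutation p = 0.540). limma-voom moved the median of all probes from 0.00562 to 0.111, and its marker fold changes are to be read against that shift.

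The count of probes called, 2 over all regions, was 1 with upper quartile scaling, scaling by the negative probes, limma-voom, the stricter filter (above the floor in at least 3 regions) and without regions 2, 3 and 11. It was 17 with DESeq2 (1 higher and 16 lower, against 2 and 0), 57 after subtracting 1 from every count (25 higher and 32 lower), 37 with the negative-probe share as a covariate, 13 without regions 4 and 8 and 14 without regions 3 and 7. Leaving out 1 region gave 1 to 53, with 53 without SMA-adjacent region 5 (12 higher and 41 lower) and 13 without Pdpn-adjacent region 7. The cause was not tested.

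The number of markers with an exact permutation p under 0.05, 2 over all regions, was 0 without regions 2, 3 and 11 and 0 to 3 when 1 region was left out; it was 0 after leaving out any of regions 1, 2, 3, 6, 7, 9, 10 and 11, 1 without region 4 and 3 without region 8. Markers above the floor numbered 43 of 77 pairs with the floor at the mean plus 1 SD and 3 with 3 SD, against 22. Groups overlapped for every marker in each alternative. No paired analysis was possible because the groups share no region number and regions are not tied to mice. The design's level alternative with 1 subtracted and added used the arithmetic mean of the negative probes. The correlations without region 7 were chosen after seeing the data.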
